A study of Mus musculus with 16 samples.

Results

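The 10 genes described here, Igf1, Igfals, Igfbp4, Igfbp2, Igfbp1, Ghr, Stat5b, Socs2, Cish and Bcl6, belong to the axis of growth hormone and the insulin-like growth factors (IGF) in the liver. They were chosen by gene symbol from the table of expression values of the series, and all 10 were found among its 17003 genes. Levels are given in FPKM, the fragments of a gene per length of its transcript and per mapped fragment of its library. All 10 genes reached a mean of 0.1 FPKM over the mice, which was required of a gene to be tested and was met by 12770 genes in all.

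Growth hormone from the pituitary binds its receptor on hepatocytes, which activates the kinase JAK2 and the transcription factors STAT5A and STAT5B. In the liver these factors drive the genes of IGF1 and of its partner the acid-labile subunit, and also those of the suppressors of cytokine signalling SOCS2 and CISH, which damp the receptor. Circulating IGF1 is carried by IGF-binding proteins, of which IGFBP1 is repressed by insulin. In male rodents growth hormone is secreted in pulses, and BCL6, a repressor that binds sites shared with STAT5, belongs to the male pattern of liver expression.

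RNA of whole liver was sequenced from 8-week-old male mice, with 1 library per mouse. The labels give all mice as fed, that is not fasted, and their diet was normal chow. The 8 Fgl1 LWT mice carried floxed Fgl1 alleles and no CRE recombinase. The 8 Fgl1 LKO littermates carried the same floxed alleles together with CRE driven by the albumin promoter. This excised an exon of Fgl1 in hepatocytes, and the study calls the deletion specific to them. Excision in the other cells of the liver was not examined here. Fgl1 encodes a protein secreted by hepatocytes. The comparison asks how expression differs in livers whose hepatocytes lack Fgl1. The labels number the mice but do not group them. Neighbouring numbers were gathered here into 4 runs, and what a run stands for was not given in the sources used here. Runs 2, 3 and 4 held mice 48 to 55, 60 to 64 and 69 to 72. Mouse 55 lies equally far from mice 50 and 60 and was placed in run 2 unless stated otherwise. Run 1 (mice 36 to 38) held 3 mice, all Fgl1 LWT. Read numbers of the libraries are unknown, and the summed FPKM of a library ranged from 673153 to 786188.

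Fgl1 itself lay between 157.8 and 1331 FPKM in Fgl1 LWT mice and between 13.2 and 90.0 FPKM in Fgl1 LKO mice, so that the genotypes did not overlap. These values are given per gene and not for the excised exon alone. What the level that remained in Fgl1 LKO mice came from was not tested. All 5 hepatocyte markers (Alb, Apoa1, Ttr, Cps1 and Serpina1c) were above 0 in every mouse, with a summed level of 53151 to 93296 FPKM. Markers of other liver cells were also present. The summed level of the 5 Kupffer cell markers was 51.7 to 108.1 FPKM in Fgl1 LWT and 63.3 to 137.5 FPKM in Fgl1 LKO mice, and that of the 5 cholangiocyte markers was 24.7 to 56.1 FPKM in Fgl1 LWT and 28.9 to 261.6 FPKM in Fgl1 LKO mice. The sum of the cholangiocyte markers mostly reflects 1 gene, Spp1, with a mean of 58.1 FPKM over the 16 mice. The means of Krt19, Krt7, Epcam and Sox9 were 1.46, 0.43, 1.10 and 1.57 FPKM. Since whole liver was measured, fewer cells of a type and less RNA per cell cannot be told apart.

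The mice also differed widely in acute-phase genes, which hepatocytes induce during inflammation. Saa1, the gene of serum amyloid A1, lay between 63.8 and 16268 FPKM in Fgl1 LWT mice and between 68.4 and 7669 FPKM in Fgl1 LKO mice. An acute-phase score was formed as the mean log2(FPKM + 1) of the 6 genes Saa1, Saa2, Orm1, Orm2, Hp and Lcn2. The score ranged from 6.17 to 12.4 in Fgl1 LWT mice (median 7.55) and from 6.22 to 11.2 in Fgl1 LKO mice (median 9.35). It is given beside the results below.

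The 250 bases before the principal start of each of the 10 genes (GRCm39 assembly, GENCODE canonical transcript) were searched for the STAT5 consensus TTCNNNGAA, which reads the same on both strands, and for the forkhead letters TGTTTAC on either strand. Igfals and Bcl6 held 1 STAT5 consensus each, Igfals also held 1 forkhead match, and neither set of letters was in the windows of the other 8 genes. The canonical start need not be the one used in the liver, and 218 of the 250 bases of the Igf1 window and 219 of those of Socs2 lie in an exon of another transcript of the gene. Of 21770 windows of the same length before protein-coding genes, 7.70% held the STAT5 letters and 2.72% the forkhead letters. The RefSeq promoter table (GRCm38.p6) lists 9 of the 10 genes, with 15 promoters and other starts for some of them. There the STAT5 letters again occurred for Igfals and Bcl6 alone. They were in 4 of the 15 promoters, all of these 2 genes, against 7.02% of 32851 promoters. The windows of these genes are shown because they hold the matches. That of Igfals lies at chr17:25096929-25097178 on the plus strand, and that of Bcl6 at chr16:23807603-23807852 on the minus strand. Both are written from 5′ to 3′ along the strand of the gene, with the matches in capitals. In Igfals the forkhead match spans bases -216 to -210 and the STAT5 match bases -32 to -24 from the start, and in Bcl6 the STAT5 match spans bases -118 to -110.
Igfals: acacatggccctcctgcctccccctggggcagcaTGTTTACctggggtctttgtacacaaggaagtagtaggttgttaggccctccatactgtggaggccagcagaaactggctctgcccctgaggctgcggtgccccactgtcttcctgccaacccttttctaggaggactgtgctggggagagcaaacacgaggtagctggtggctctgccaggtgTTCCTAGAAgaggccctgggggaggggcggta
Bcl6: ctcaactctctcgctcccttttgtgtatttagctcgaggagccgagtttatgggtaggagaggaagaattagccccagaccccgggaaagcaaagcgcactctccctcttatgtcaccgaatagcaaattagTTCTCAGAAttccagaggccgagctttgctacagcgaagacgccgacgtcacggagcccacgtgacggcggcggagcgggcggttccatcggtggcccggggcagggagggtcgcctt
A match describes letters in these windows and does not show that a factor binds there.

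Because FPKM are scaled to transcript length, the levels of the genes can be set in order. Igfbp4 stood highest with 473.2 ± 53.6 FPKM (SD, n = 16 mice), and was above Igfbp2 in 16 of 16 mice. Igfbp2 followed with 216.4 ± 75.1 FPKM, then Ghr with 188.1 ± 20.5, Igfbp1 with 103.4 ± 65.0, Igfals with 59.7 ± 12.7 and Igf1 with 58.2 ± 6.81 FPKM (SD, n = 16). Below them lay Bcl6 with 17.3 ± 10.4 FPKM, Stat5b with 16.3 ± 2.27, Socs2 with 9.13 ± 8.98 and Cish with 4.82 ± 5.93 FPKM (SD, n = 16). By their means, the secreted proteins and the receptor thus all stood above the transcription factors and the feedback regulators. Mouse by mouse this did not hold for Igfbp1, which was 15.1 FPKM in Fgl1 LKO replicate 6, where Stat5b was 15.9 FPKM. The range of Igfbp1 also overlapped that of Bcl6, whose highest mouse stood at 33.5 FPKM. The ranges of Igf1 and Bcl6, which adjoin in the order of the means, did not overlap. All other neighbours in the order overlapped in their ranges. Igfbp2 exceeded Ghr in 9 of 16 mice, Igfals exceeded Igf1 in 10, Bcl6 exceeded Stat5b in 8 and Socs2 exceeded Cish in 8, so that these neighbours did not differ beyond their spread.

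**Figure D1:**
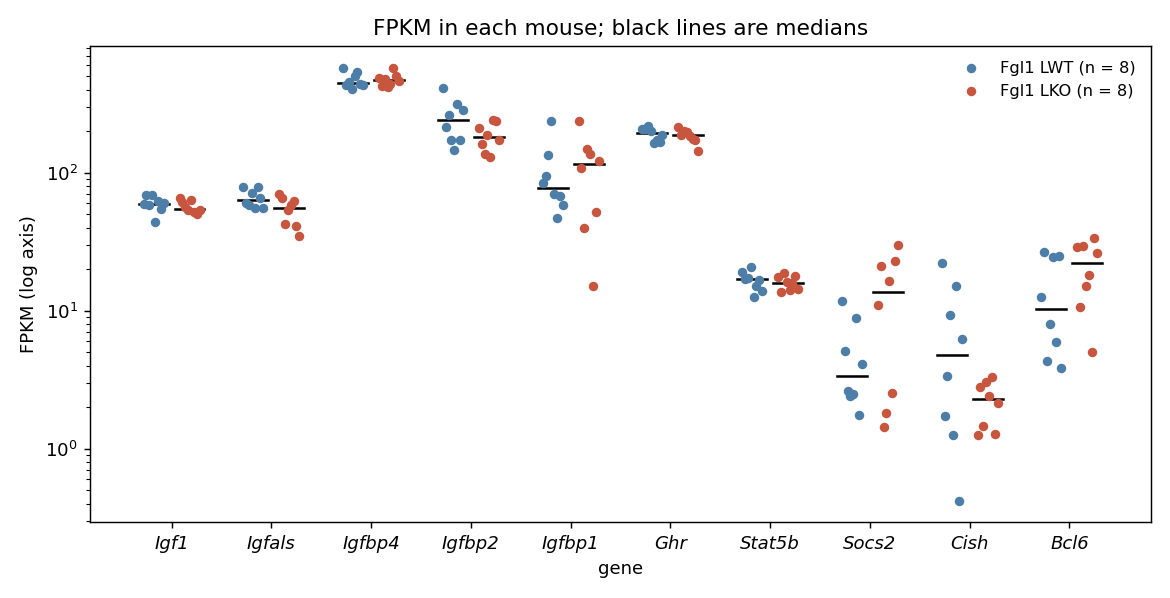
FPKM of the 10 genes (x axis) in each of the 8 Fgl1 LWT and 8 Fgl1 LKO mice on a log axis, with black lines at the median of each genotype. Igf1, Igfbp4, Ghr and Stat5b sit in narrow bands, whereas Socs2, Cish and Bcl6 spread widely, and the genotypes overlap for every gene.

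The genes divided into a steady and a variable part when their spread between mice of 1 genotype was measured. The within-genotype SD of log2(FPKM + 1) was 0.17 for Igf1, 0.16 for Igfbp4, 0.17 for Ghr and 0.20 for Stat5b, close to the median of 0.17 over the 12770 genes. It was 0.29 for Igfals and 0.43 for Igfbp2, and 1821 and 633 genes had a larger SD. Bcl6, Igfbp1, Cish and Socs2 varied far more, with SDs of 0.96, 1.03, 1.04 and 1.21, and 99.5% to 99.8% of the genes had a smaller SD. Of all genes, 26 had a larger SD than Socs2.

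**Figure D2:**
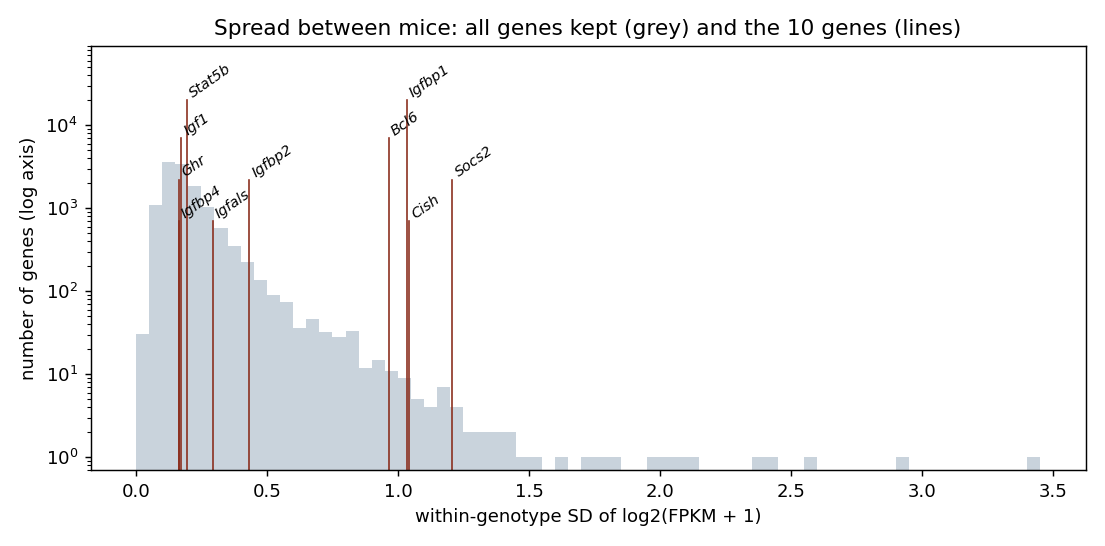
Number of genes (log axis) by within-genotype SD of log2(FPKM + 1) for the 12770 genes kept (grey bars), with the 10 genes as lines. Igf1, Igfbp4, Ghr and Stat5b lie near the median of 0.17, and Bcl6, Igfbp1, Cish and Socs2 lie between 0.96 and 1.21.

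The genotypes were compared with limma on log2(FPKM + 1) over all 12770 genes, adjusted by Benjamini-Hochberg and called at 0.05, and single genes also with an exact permutation test over 12870 splits of the mice. None of the 10 genes passed the threshold after adjustment (adjusted p from 0.696 to 0.981), and neither did any other gene, so that the share called was 0%. The smallest adjusted p was that of Fgl1, at 0.0725 for a log2 difference of -3.11. Without adjustment, 1 of the 10 genes had p under 0.05, against 7.01% of all genes (593 with higher and 302 with lower levels in Fgl1 LKO mice, a split that became 467 and 519 with median-ratio scaling and 412 and 593 with quantile normalization). In none of the 10 genes were the genotypes free of overlap, which held for 0.0157% of all genes. The fold change was below 0 for 7 genes and above 0 for 3, with a median of -0.06 against 0.01 over all genes. Direction flipped for Igfbp4 with median-ratio scaling and quantile normalization, and kept its sign for the other 9 genes under the scalings tried.

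**Figure D3:**
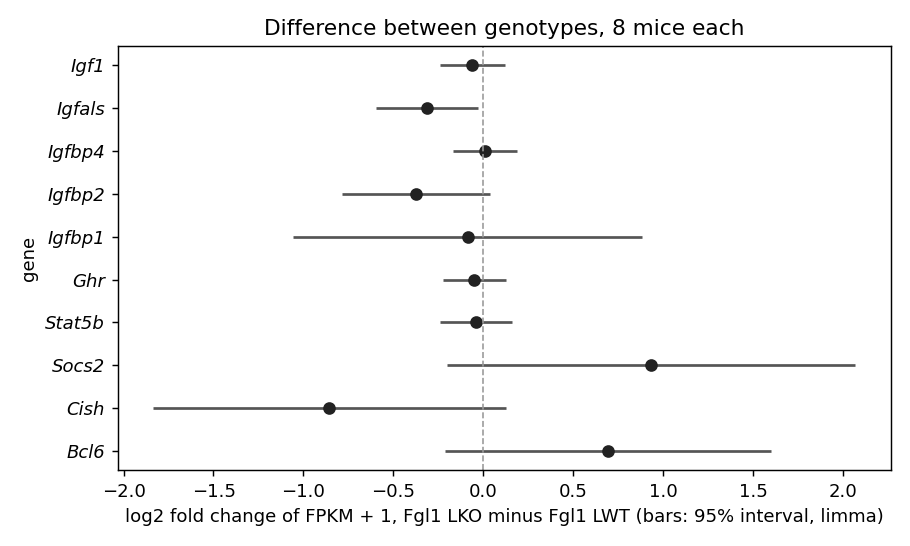
Log2 fold change of FPKM + 1 between Fgl1 LKO and Fgl1 LWT mice (x axis, points) with its 95% interval from limma (bars) for each of the 10 genes, 8 mice per genotype. The interval of Igfals, from -0.60 to -0.03, is the one that does not reach 0, and those of Socs2, Cish, Bcl6 and Igfbp1 are the widest.

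Igf1 (chr10:87693642-87772904, plus strand), the hormone through which many actions of growth hormone on growth are exerted, was nearly equal between genotypes. Fgl1 LWT mice had 44.0 FPKM at the lowest, 59.8 at the median and 68.9 at the highest, and Fgl1 LKO mice had 50.1, 54.7 and 65.1 FPKM. All Fgl1 LKO mice lay within the range of the Fgl1 LWT mice. The log2 fold change was -0.06 (95% interval -0.24 to 0.12), which in fold terms lies between 0.846 and 1.09 on the FPKM + 1 scale (adjusted p = 0.878 by limma).

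Igfals (chr17:25084971-25100984, plus strand), the acid-labile subunit that holds IGF1 and a binding protein in a ternary complex in blood, showed the lowest unadjusted p of the 10 genes. Its FPKM was 55.9 at the lowest, 63.2 at the median and 79.2 at the highest in Fgl1 LWT mice. In Fgl1 LKO mice it was 34.5, 55.9 and 70.2 FPKM. Below every Fgl1 LWT mouse lay 4 of the Fgl1 LKO mice, and above every Fgl1 LKO mouse lay 3 of the Fgl1 LWT mice. Mean levels were 65.7 ± 9.68 FPKM (SD, n = 8) and 53.6 ± 12.9 FPKM (SD, n = 8), a log2 fold change of -0.31 (95% interval -0.60 to -0.03). The exact permutation test gave p = 0.0493 (two-sided), and limma gave p = 0.0325, or 0.696 after adjustment over all genes. An exact rank-sum test gave p = 0.105, and the permutation p stayed under 0.05 in 6 of the 16 analyses that each left out 1 mouse. Of the runs that held both genotypes, run 2 had 1 Fgl1 LWT and 3 Fgl1 LKO mice, run 3 had 2 and 3, and run 4 had 2 and 2, so that every difference in run 2 rests on 1 Fgl1 LWT mouse. The Igfals difference was -0.28 in run 2, -0.20 in run 3 and -0.67 in run 4 on the log2 scale.

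Among the binding proteins, Igfbp4 (chr11:98932064-98945218, plus strand), whose product is cleaved by the protease PAPP-A, differed least between genotypes. Its FPKM was 405.5 at the lowest, 446.6 at the median and 570.9 at the highest in Fgl1 LWT mice, and 416.3, 470.4 and 578.9 in Fgl1 LKO mice. The log2 fold change was 0.01 (95% interval -0.17 to 0.19).

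Igfbp2 (chr1:72863606-72891634, plus strand), a binding protein with high levels in the liver, was 145.0 FPKM at the lowest, 240.1 at the median and 414.1 at the highest in Fgl1 LWT mice. In Fgl1 LKO mice it was 129.7, 181.3 and 241.7 FPKM. Below the Fgl1 LWT median lay 7 of the 8 Fgl1 LKO mice, and 4 Fgl1 LWT mice lay above every Fgl1 LKO mouse. The log2 fold change of -0.37 (95% interval -0.79 to 0.04) did not pass the exact permutation test (p = 0.107) or limma (adjusted p = 0.701). Fitted with the run as a term it was -0.15, and without the mice 36 to 38 it was -0.20.

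Igfbp1 (chr11:7147651-7152546, plus strand), whose transcription is repressed by insulin and raised by FOXO1, ranged from 46.6 FPKM over a median of 77.1 to 238.2 in Fgl1 LWT mice. Among Fgl1 LKO mice it ranged from 15.1 FPKM over a median of 115.0 to 238.3. The highest mouse of each genotype stood at nearly the same level, 5.11 times and 15.8 times the lowest mouse of its genotype. The log2 fold change was -0.09 (95% interval -1.06 to 0.89), an interval too wide to place the genotypes in order, and the means of FPKM itself had the opposite order, with 99.3 ± 62.1 FPKM in Fgl1 LWT against 107.5 ± 71.8 FPKM in Fgl1 LKO mice (SD, n = 8 each).

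Ghr (chr15:3347235-3613024, minus strand), the growth hormone receptor, stood at 165.2 FPKM at the lowest, 195.2 at the median and 217.6 at the highest in Fgl1 LWT mice. Values of the Fgl1 LKO mice were 143.5, 186.4 and 214.2 FPKM. Stat5b (chr11:100671556-100741589, minus strand), the main STAT5 of the liver, stood at 12.6, 16.9 and 20.7 FPKM in Fgl1 LWT mice and at 13.6, 15.97 and 18.7 FPKM in Fgl1 LKO mice. For both genes the genotypes overlapped over most of their ranges. Log2 fold changes were -0.05 (95% interval -0.22 to 0.12) for Ghr and -0.04 (95% interval -0.24 to 0.16) for Stat5b, with adjusted p-values of 0.898 and 0.933 by limma.

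The feedback regulators Socs2 and Cish had the largest SDs of the 10 genes. Socs2 (chr10:95219523-95253929, minus strand), a suppressor of growth hormone signalling, was 1.75 FPKM at the lowest, 3.36 at the median and 11.7 at the highest in Fgl1 LWT mice. The Fgl1 LKO mice had 1.44, 13.7 and 29.9 FPKM. Values in 4 Fgl1 LKO mice lay above every Fgl1 LWT mouse and 1 lay below every one. The mean was 2.74 times as high in Fgl1 LKO mice, but the log2 fold change of 0.93 had a 95% interval from -0.20 to 2.07 (exact permutation test, p = 0.146, adjusted p = 0.713 by limma). It was 1.34 in run 2, -0.07 in run 3 and 2.86 in run 4.

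Cish (chr9:107173225-107179983, plus strand), a STAT5 target that binds the activated receptor, went the other way in its mean. In Fgl1 LWT mice it was 0.42 FPKM at the lowest, 4.80 at the median and 22.1 at the highest. In Fgl1 LKO mice it was 1.25, 2.29 and 3.29 FPKM. Above every Fgl1 LKO mouse lay 5 of the Fgl1 LWT mice, and 1 lay below every one, so that the Fgl1 LKO mice fell inside the Fgl1 LWT range. The mean in Fgl1 LKO mice was 0.298 of that in Fgl1 LWT mice, with a log2 fold change of -0.86 (95% interval -1.84 to 0.13, exact permutation test, p = 0.124, adjusted p = 0.707 by limma). The difference was -1.89 in run 2, -0.62 in run 3 and -0.26 in run 4. Without Fgl1 LWT replicate 7, the mouse at 0.42 FPKM, the exact permutation test gave p = 0.0306 (log2 fold change -1.14), and without replicate 1, the mouse at 22.1 FPKM, the log2 fold change was -0.57. The SD of log2(FPKM + 1) was 1.43 in Fgl1 LWT and 0.38 in Fgl1 LKO mice, a ratio of 3.76, and 0.337% of all genes had a ratio at least as large. This ratio was singled out after the values were seen and was not tested. For Socs2 the SD was 0.79 in Fgl1 LWT and 1.51 in Fgl1 LKO mice.

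Bcl6 (chr16:23783802-23807602, minus strand), the repressor that shares binding sites with STAT5, was 3.83 FPKM at the lowest, 10.2 at the median and 26.4 at the highest in Fgl1 LWT mice. In Fgl1 LKO mice it was 4.99, 22.1 and 33.5 FPKM. Values in 3 Fgl1 LKO mice lay above every Fgl1 LWT mouse, and 7 of 8 lay above the Fgl1 LWT median. The log2 fold change was 0.69 (SE 0.43, exact permutation test, p = 0.170, adjusted p = 0.722 by limma). It was 1.29 in run 2, -0.12 in run 3 and 1.45 in run 4.

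Correlations were computed for 18 pairs, chosen by role with earlier results of these data known. Adjustment over the 18 does not cover that choice. The 16 mice were used after centring log2(FPKM + 1) on each genotype, with permutation within genotype. One pair passed after adjustment over the 18, that of Igfbp1 and Irs2, the gene of an insulin receptor substrate that is likewise repressed by insulin. Irs2 lay between 3.11 and 6.87 FPKM in Fgl1 LWT mice and between 2.05 and 8.55 FPKM in Fgl1 LKO mice, and mice with little Igfbp1 had little Irs2. Pearson's r was 0.91 (permutation p = 3.0e-05, adjusted p = 0.00054) and Spearman's rho was 0.86 (permutation p = 0.00011, adjusted p = 0.00198). The relation held in Fgl1 LWT mice (r = 0.89), in Fgl1 LKO mice (r = 0.91), without the 2 mice farthest from the Igfbp1 median (r = 0.84) and after centring on the run of mouse numbers (r = 0.90). For Igfbp1 and G6pc, the gene of glucose-6-phosphatase, r was 0.61 and rho 0.56 (permutation p = 0.0111 and 0.0245, adjusted p = 0.0996 and 0.101), and r was 0.45 without the 2 farthest mice. For this pair r was 0.30 in Fgl1 LWT mice (exact permutation p = 0.474) and 0.88 in Fgl1 LKO mice (exact permutation p = 0.00392). That difference between genotypes was not tested.

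The correlation of Bcl6 with Cish was negative. Pearson's r was -0.58 (permutation p = 0.0398, adjusted p = 0.139) and Spearman's rho was -0.72 (permutation p = 0.00874, adjusted p = 0.0787), so that the pair did not pass after adjustment. Within genotypes r was -0.58 in Fgl1 LWT mice (exact permutation p = 0.130) and -0.87 in Fgl1 LKO mice (exact permutation p = 0.00248). Leaving out the 2 mice farthest from the Bcl6 median gave r = -0.70, and with this rule for every pair the adjusted p of Bcl6 and Cish was 0.0318. Socs2 and Cish, both STAT5 targets, had r = 0.29 and rho = 0.13 over 16 mice (permutation p = 0.135 and 0.592, adjusted p = 0.244 and 0.666), and r was 0.40 without the 2 farthest mice. In Fgl1 LWT mice r was 0.76 (exact permutation p = 0.0313) and in Fgl1 LKO mice -0.23 (exact permutation p = 0.549), a difference between genotypes that was not tested.

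**Figure D4:**
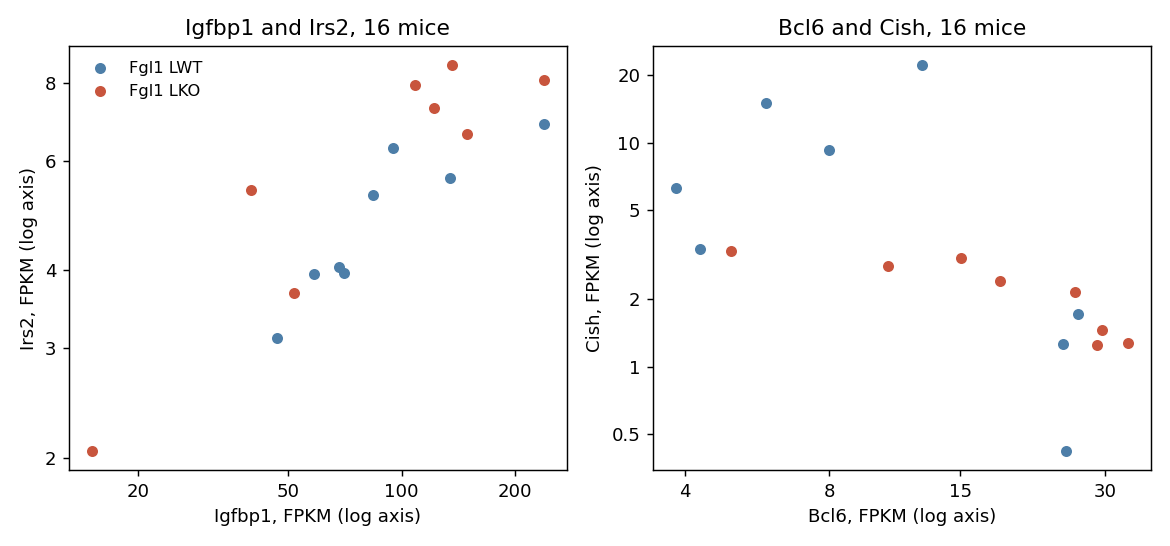
FPKM of Igfbp1 and Irs2 (left) and of Bcl6 and Cish (right) in the 16 mice, on log axes, coloured by genotype. Irs2 is higher in mice with more Igfbp1 (r = 0.91), and Cish is lower in mice with more Bcl6 (r = -0.58), each over the 16 mice centred on genotype.

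Pairs of the receptor with its transducer and with Igf1 did not pass after adjustment. For Ghr and Igf1, r was 0.57 and rho 0.53 (permutation p = 0.0197 and 0.0411, adjusted p = 0.118 and 0.123), and for Ghr and Stat5b, r was 0.55 and rho 0.57 (permutation p = 0.0305 and 0.0277, adjusted p = 0.137 and 0.101). Without the 2 mice farthest from the Ghr median r was 0.69 and 0.55, and after centring on the run of mouse numbers it was 0.33 and 0.32. The other pairs, among them Igfbp1 with Igfbp2, Igf1 with Igfals and Igfbp2 with Fasn, had adjusted p-values of 0.139 and above for r and of 0.101 and above for rho.

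The slope of each gene on the acute-phase score was fitted with limma with genotype as a term. None of the 10 genes passed after adjustment over the 12764 genes outside the score, against 1.73% of all genes (84 with a slope above and 137 below 0, a split that became 108 and 47 with median-ratio scaling, 89 and 70 with quantile normalization and 73 and 234 with an equal sum in each mouse). Without adjustment, 2 of the 10, Stat5b and Ghr, had p under 0.05 by limma, against 18.6% of all genes. Of those genes 429 had a slope above and 1948 below 0, a split that became 985 and 952 with median-ratio scaling. The slopes of Stat5b and Ghr, both below 0, thus had the direction of most such genes in the main fit. The slope of Stat5b was -0.06 on the log2 scale per unit of the score (95% interval -0.10 to -0.03, adjusted p = 0.0781 by limma). Over 16 mice r was -0.71 (permutation p = 0.00536) and rho -0.74 (permutation p = 0.00237), and r was -0.79 without the 2 mice of the highest score, Fgl1 LWT replicates 5 and 7. The slope was -0.06 when the run was added as a term (adjusted p = 0.439) and -0.04 with median-ratio scaling (adjusted p = 0.212).

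Ghr had a slope of -0.05 (95% interval -0.09 to -0.01, adjusted p = 0.145 by limma), with r = -0.63 (permutation p = 0.00916) and rho = -0.71 (permutation p = 0.00384). Without the 2 mice of the highest score r was -0.44, and r was -0.91 in Fgl1 LWT mice and -0.32 in Fgl1 LKO mice, a difference that was not tested. When the run was added as a term the slope was -0.02 (adjusted p = 0.724), and with median-ratio scaling it was -0.03 (95% interval -0.06 to 0.0075, unadjusted p = 0.114 and adjusted p = 0.449 by limma). The 3 Fgl1 LWT mice of run 1 all had scores between 6.17 and 6.45, and in run 2 Fgl1 LKO replicate 3 stood at 6.22 and Fgl1 LWT replicate 4 at 6.76. Slopes of the other 8 genes lay between -0.21 for Cish and 0.05 for Bcl6, and without the 2 mice of the highest score those of Cish and Bcl6 were 0.11 and -0.28.

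**Figure D5:**
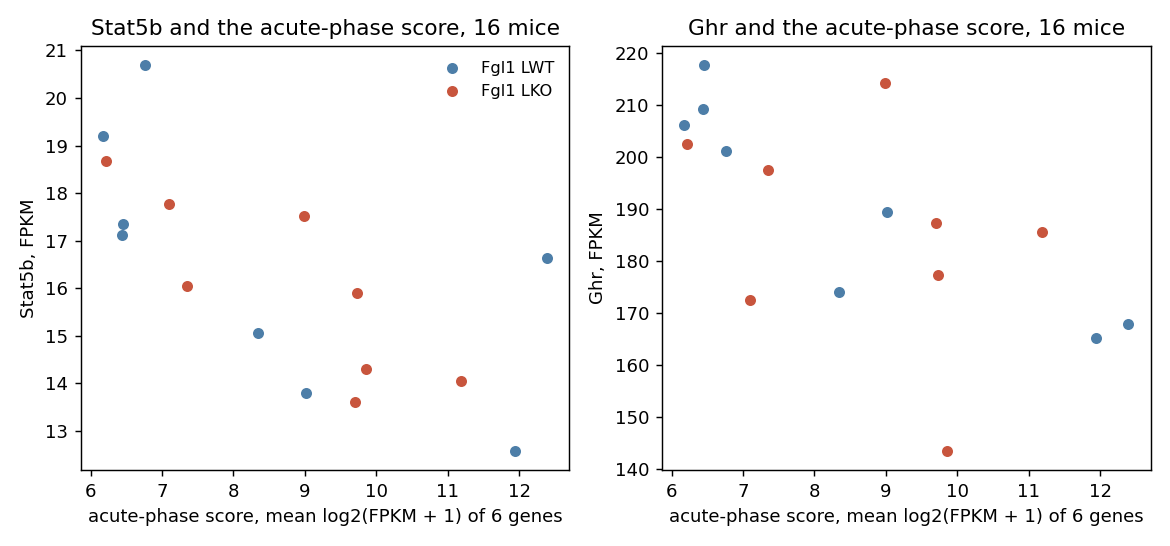
FPKM of Stat5b (left) and Ghr (right) against the acute-phase score, the mean log2(FPKM + 1) of 6 acute-phase genes, in the 16 mice, coloured by genotype. Over the 16 mice centred on genotype, r is -0.71 for Stat5b and -0.63 for Ghr. The score ranges of the genotypes overlap, with medians of 7.55 in Fgl1 LWT and 9.35 in Fgl1 LKO mice.

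The rest of the pathway was followed in 4 lists. All 18 genes of growth hormone receptor signalling, among them Jak2, Stat5a, Socs3 and Ptpn11, were kept, and 0 passed for genotype after adjustment, with 0 under 0.05 without it and a median log2 fold change of 0.12. Of 18 other genes of the IGF system, such as Igf1r, Igf2r and Igfbp3, 11 were kept and 0 passed after adjustment. Igf2bp3, which encodes a protein that binds Igf2 messages, was the 1 gene of that list with an unadjusted p under 0.05 (1 of 11, against 7.01% of all genes), at 0.178 ± 0.128 FPKM in Fgl1 LWT and 0.0663 ± 0.0510 FPKM in Fgl1 LKO mice (SD, n = 8 each, adjusted p = 0.696 by limma). That level is close to the lower limit of the table, whose values have 2 decimals.

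Growth hormone pulses also set sex-biased expression in the liver. All 16 male-biased genes dependent on growth hormone, among them Cyp7b1, Elovl3 and Cyp4a12a, were kept, while 10 of 20 female-biased genes were. For genotype 0 genes of either list passed, with 0 under 0.05 without adjustment, and the median log2 fold changes were 0.09 and 0.06, against 0.01 over all genes. On the acute-phase score 3 of the 55 genes kept over the 4 lists passed by limma, against 1.73% of all genes. Socs3, a suppressor induced by cytokines, had a slope of 0.30 (adjusted p = 0.0494), the complement gene C8a one of 0.10 (adjusted p = 0.0416) and the transporter gene Slco1a1 one of -0.13 (adjusted p = 0.0182). They passed in 11, 14 and 23 of 32 alternatives, respectively, and none of them passed with a replicate block, with the run as a term or without mice 36 to 38.

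For each gene the closest patterns were sought among 10037 genes whose mean reached 1 FPKM, as Pearson's r of genotype-centred log2(FPKM + 1) over 16 mice. These r are descriptions of chosen maxima and carry no test. The 3 closest genes to Igf1 were Cep95 (r = 0.92), Ireb2 (0.80) and Denn2b (0.80), and those to Igfals were Bcs1l (0.91), Ift140 (0.86) and Smagp (0.86). For Igfbp4 they were Lcat (0.85), which encodes a plasma cholesterol acyltransferase, Fam160b2 (0.84) and Tor2a (0.84), and for Igfbp2 they were Card10 (0.78), Ggact (0.76) and Acsm5 (0.75). Igfbp1 was followed after Irs2 (0.91) by Filip1l (0.84) and C9orf72 (0.83). Genes close to Ghr were Osbpl8 (0.93) and Slc35e2 (0.92), and Stat5b was closest to Spg11 (0.90), Numa1 (0.87) and Plagl2 (0.86). Socs2 was closest to Ensa (0.91), Tmem30a (0.89) and Palmd (0.86), and Bcl6 to Champ1 (0.81), Mphosph8 (0.79) and Wdr20 (0.78). Cish was closest to Foxa2 and Foxa1 (0.88 and 0.84), the genes of hepatic forkhead factors, at r = 0.97 and 0.96 in Fgl1 LWT mice and 0.22 and -0.06 in Fgl1 LKO mice, in which Cish varied little, and Rgs3 (0.80) came next.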

How the data were processed

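Liver RNA of 16 mice was measured by RNA sequencing of a stranded mRNA library per mouse. Per the labels, the authors aligned reads to mm39 with HISAT and Bowtie2, whose versions are not given in the sources used here, and they deposited FPKM with 2 decimals and decimal commas for 17003 genes. FPKM already include the authors' scaling to transcript length and library size. Each column matched 1 mouse, and 0 columns were left over. FPKM are not counts and the number of reads is unknown, so no counting error is given.

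Groups followed the genotype in the labels. Values were used as log2(FPKM + 1), a scale that understates the change of low genes, for the 12770 genes whose mean reached 0.1 FPKM. Genotypes were compared with limma 3.58.1 (R 4.3.3, lmFit, eBayes with trend, two-sided, Benjamini-Hochberg), tested on simulated data, and single genes with exact two-sided permutation tests over 12870 splits, whose smallest p is 0.0001554. Slopes on the acute-phase score had genotype as a term. Correlations used 100000 permutations within genotype (smallest p 1e-05), with Python 3.11.15, numpy 2.4.6, scipy 1.17.1 and pandas 2.3.3. With 1 library per mouse, p-values measure the spread between mice.

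The text names the 10 genes, Fgl1, Saa1, genes of the wider lists with an adjusted p under 0.05, or under 0.05 unadjusted for genotype, the partners of the pairs tested, and the 3 genes closest in pattern to each of the 10, of which 1 is not reported here. Other list genes are named only as examples of what a list holds. The 10 genes, lists and pairs were chosen with earlier results of these data known. G6pc is listed in the table under that symbol. Gene positions are from GRCm39 with GENCODE vM39, the assembly that mm39 names. The windows before canonical starts were added after the promoter table had been searched. Replicate numbers did not pair the mice (mean r of same-numbered mice 0.07, with 3 of 8 pairs above 0.1). Alternatives were other pseudocounts (0.1 and 0.01), filters, scalings, a replicate block, robust empirical Bayes, array weights, a term for the run, other scores, a rank-sum test and leaving out mice. The other experiments of the study were not analysed here.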

Additional observations from a re-analysis of the deposited data

How the results depend on the processing

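Across 30 alternatives, 0 of the 10 genes had an adjusted p under 0.05 for genotype. The number of genes called over the whole table was 0 in the main analysis and in each of the 16 analyses without 1 mouse. It was 1, Fgl1, with an equal sum in each mouse, with a replicate block, with a term for the run (mouse 55 in either run), without mice 36 to 38, with the score as a covariate and at an adjusted p under 0.1. Genes with an unadjusted p under 0.05 numbered 624 to 1233. Single genes with an exact permutation p under 0.05 numbered 0 to 2 without 1 mouse (Igfals in 6 of 16, Igfbp2 without Fgl1 LWT replicate 5, Cish without Fgl1 LWT replicate 7) and 0 with the rank-sum test and without mice 36 to 38.

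For the acute-phase score, 221 genes passed. The number was 1382 with array weights, 0 with the replicate block, 21 with the run as a term, 40 with mouse 55 in the other run, 27 without mice 36 to 38, 24 without the 2 mice of highest score and 58 (without Fgl1 LWT replicate 5) to 421 (without Fgl1 LKO replicate 7) without 1 mouse. Of the 10 genes, 2 (Stat5b and Ghr) passed with array weights, and between 0 and 1 without 1 mouse (Stat5b, without Fgl1 LWT replicate 7, adjusted p = 0.0268 by limma). With the 2 farthest mice left out, 3 correlations passed, those of Igfbp1 with Irs2, Ghr with Igf1 and Bcl6 with Cish.

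Signs turned in log2 fold changes near 0. That of Igfbp4 was -0.0089 with median-ratio scaling, -0.013 with quantile normalization and -0.020 with array weights. Igfbp1 had 0.025 with array weights, 0.0092 with mouse 55 moved and 0.051 without mice 36 to 38. Ghr had 0.013 and 0.038 with mouse 55 moved and without mice 36 to 38, and Stat5b 0.0021 with the run as a term, 0.028 and 0.031. Without 1 mouse, the ranges were -0.032 to 0.050 for Igfbp4, -0.30 to 0.25 for Igfbp1, -0.081 to 0.00068 for Ghr and -0.091 to 0.0055 for Stat5b.

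Slopes on the score also turned. With the replicate block they were 0.10 for Igfbp1, -0.30 for Socs2 and -0.056 for Bcl6. With array weights they were -0.0085 for Igfals, 0.0025 for Igfbp4 and -0.0037 for Socs2. Igfals had -0.0068 with equal sums, and Igfbp4 had 0.019 with median-ratio scaling, 0.0040 with mouse 55 moved, 0.0089 without mice 36 to 38 and 0.00088 on Saa1 alone. Igfbp1 had 0.086 with the run as a term and 0.038 with mouse 55 moved. Without the 2 mice of highest score, slopes were 0.025 for Igf1, 0.0048 for Igfbp1, 0.11 for Cish and -0.28 for Bcl6. Without 1 mouse, ranges were -0.0072 to 0.025 for Igfals, -0.0094 to 0.011 for Igfbp4, -0.068 to 0.13 for Socs2 and -0.037 to 0.10 for Bcl6. The cause of these changes was not tested.

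The replicate numbers only name the mice, since they did not deviate together (2 of 8 Fgl1 LWT mice were closest to their own number), and the block changed no call for the 10 genes. A search of 20 groups for a mouse far from the others found 0, where chance gives about 1. FPKM carry no read depth, so the error of low values such as those of Cish and Socs2 is unknown.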
